A study of Mus musculus with 6 samples.

Results

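The genes described here are 10 receptors of the CD300 and TREM families, Cd300a, Cd300e, Cd300lb, Cd300ld, Cd300lf, Trem1, Trem2, Trem3, Treml2 and Treml4, taken by name from the 32285 genes counted. Their unique molecular identifiers (UMIs, each marking one captured transcript) were followed over 6 single-cell libraries of CD45+ cells, the immune fraction, held back with magnetic beads from perfused mouse lungs after digestion with Collagenase and DNase I. The groups were 3 lungs infiltrated by acute myeloid leukaemia (AML lung 1 to 3) and 3 normal lungs (normal lung 1 to 3). The labels give no leukaemia model, genotype, strain, age or treatment for either group, and they do not mark leukaemic cells, so a monocyte-like cell of an AML lung may or may not be leukaemic. They do not say that the libraries of a group came from separate mice either, and p-values measure the spread between these libraries, which may be partly technical.

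CD300 and TREM receptors are small immunoglobulin-domain receptors of myeloid cells that come in inhibitory and activating forms. Inhibitory forms carry tyrosine motifs in their own tails that recruit phosphatases, while activating forms have short tails and signal through adaptor proteins, chiefly DAP12 (Tyrobp) or the Fc receptor gamma chain (Fcer1g). Several bind lipids exposed on dying cells, and they are used as markers of neutrophil, monocyte and macrophage subsets.

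The genes lie in 2 clusters of the mouse genome (GRCm38). The 5 CD300 members span 244 kb of chromosome 11, from 114890041 to 115133992, with Cd300a on the plus strand and the other 4 on the minus strand. The 5 TREM members span 121 kb of chromosome 17, from 48232768 to 48354147, all on the plus strand. Cd300lf overlaps Rab37, Cd300lb overlaps Gm11699 and Trem1 overlaps AC241601.2, each on the opposite strand. Of the 31-base words in the Cd300ld transcripts, 6.56% also occur in another gene, among them its neighbours Cd300ld2 to Cd300ld5, against 7.51% for Cd300a, 4.33% for Cd300lf, which shares words with Cd300ld and Cd300ld2 to Cd300ld5, 0.703% for Trem1, 0.307% for Treml2 and 0% for Cd300e, Cd300lb, Trem2, Trem3 and Treml4. Counts of Cd300ld, Cd300a and Cd300lf are the less certain for it.

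Start-site sequences are shown for the 4 members called within a class below, Cd300e, Cd300lf, Treml4 and Trem1, and for Cd300ld, which with Cd300lf held the ETS word. They are RefSeq sequences (GRCm38.p6), which covered 8 of the 10 members, and run 5′ to 3′ on the gene's strand from 250 bases before the start to 50 after it. Capitals mark matches on either strand to GAGGAAGT (PU.1-type ETS), AAAGGTCA (NR4A response element), TTNNGNAA (C/EBP) or TGTGGT (RUNX). The windows are chr11:115061990-115062289 for Cd300e, chr11:115133943-115134242 for Cd300lf and chr11:114989837-114990136 for Cd300ld, all on the minus strand, and chr17:48264045-48264344 for Treml4 and chr17:48232489-48232788 for Trem1, both on the plus strand.
Cd300e: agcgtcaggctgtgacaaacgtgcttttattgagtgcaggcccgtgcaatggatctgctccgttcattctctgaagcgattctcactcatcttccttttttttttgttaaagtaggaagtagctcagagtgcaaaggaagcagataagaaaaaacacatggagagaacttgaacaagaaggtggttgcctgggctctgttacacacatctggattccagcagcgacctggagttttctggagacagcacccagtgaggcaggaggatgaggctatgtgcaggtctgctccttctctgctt
Cd300lf: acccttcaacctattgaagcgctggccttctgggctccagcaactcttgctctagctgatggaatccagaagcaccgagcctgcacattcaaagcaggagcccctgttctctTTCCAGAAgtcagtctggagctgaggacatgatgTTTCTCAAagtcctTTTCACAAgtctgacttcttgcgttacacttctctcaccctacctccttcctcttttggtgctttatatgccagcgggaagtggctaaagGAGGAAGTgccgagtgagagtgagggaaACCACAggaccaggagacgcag
Cd300ld: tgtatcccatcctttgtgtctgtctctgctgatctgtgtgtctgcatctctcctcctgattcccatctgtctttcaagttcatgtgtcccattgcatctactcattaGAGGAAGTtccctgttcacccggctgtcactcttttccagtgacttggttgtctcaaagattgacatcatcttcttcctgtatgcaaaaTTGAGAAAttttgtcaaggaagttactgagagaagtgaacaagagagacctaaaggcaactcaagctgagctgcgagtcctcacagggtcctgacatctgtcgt
Treml4: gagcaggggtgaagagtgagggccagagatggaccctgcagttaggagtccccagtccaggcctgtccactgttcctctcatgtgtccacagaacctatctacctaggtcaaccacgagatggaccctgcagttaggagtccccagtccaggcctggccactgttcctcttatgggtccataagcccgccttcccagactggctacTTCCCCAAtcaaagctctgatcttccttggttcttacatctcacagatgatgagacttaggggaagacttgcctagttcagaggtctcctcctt
Trem1: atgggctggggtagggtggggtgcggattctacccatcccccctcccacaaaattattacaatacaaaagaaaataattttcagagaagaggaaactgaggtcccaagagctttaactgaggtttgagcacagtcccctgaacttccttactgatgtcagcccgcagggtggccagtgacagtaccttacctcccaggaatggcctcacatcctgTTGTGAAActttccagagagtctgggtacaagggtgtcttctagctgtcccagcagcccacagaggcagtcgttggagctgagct
The ETS word stood at the start of Cd300lf and 143 bases before that of Cd300ld, and 3.2% of 32851 promoters of the same length hold it. The C/EBP word was in 6 of the 8 members and in 40.7% of all promoters. Cd300lf also held the RUNX word (16.8% of promoters), and Trem2 the NR4A word (1.51%). The Cd300e and Cd300lb windows held none of the 4.

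The deposited matrices held 73095 barcodes, with 43913245 to 66513826 UMIs a library. After filters and removal of 2034 predicted doublets, 69600 cells fell into 31 clusters made without any CD300 or TREM gene, and 25 clusters were named from markers that include no member. Every such name means cells like that type, and the summed markers of the 5 main classes below were detected in each class with none of a class's own markers at 0. Neutrophil markers summed higher in late neutrophil precursors than in neutrophils in the 3 AML lungs. AML lung 3 stood apart in depth, with a median of 1067 UMIs per barcode against 2740 to 9381 in the other 5 libraries, and 25.3% of its kept cells stayed unnamed against 3.92 to 10.7%. Cluster 5, unnamed, scored 1.61 for erythroid cells and 1.58 for neutrophils. It held 12, 213 and 3828 cells in AML lungs and 23, 20 and 76 in normal lungs, doublets included. The neutrophil class, with 1338 cells in AML lung 3, does not include it. Pairs of libraries shared at most 118 barcodes. Levels are UMIs per 1000000 UMIs (CPM) of all cells of a class in a library, with at least 20 such cells unless stated, and intervals and floors cover counting error only.

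**Figure D1:**
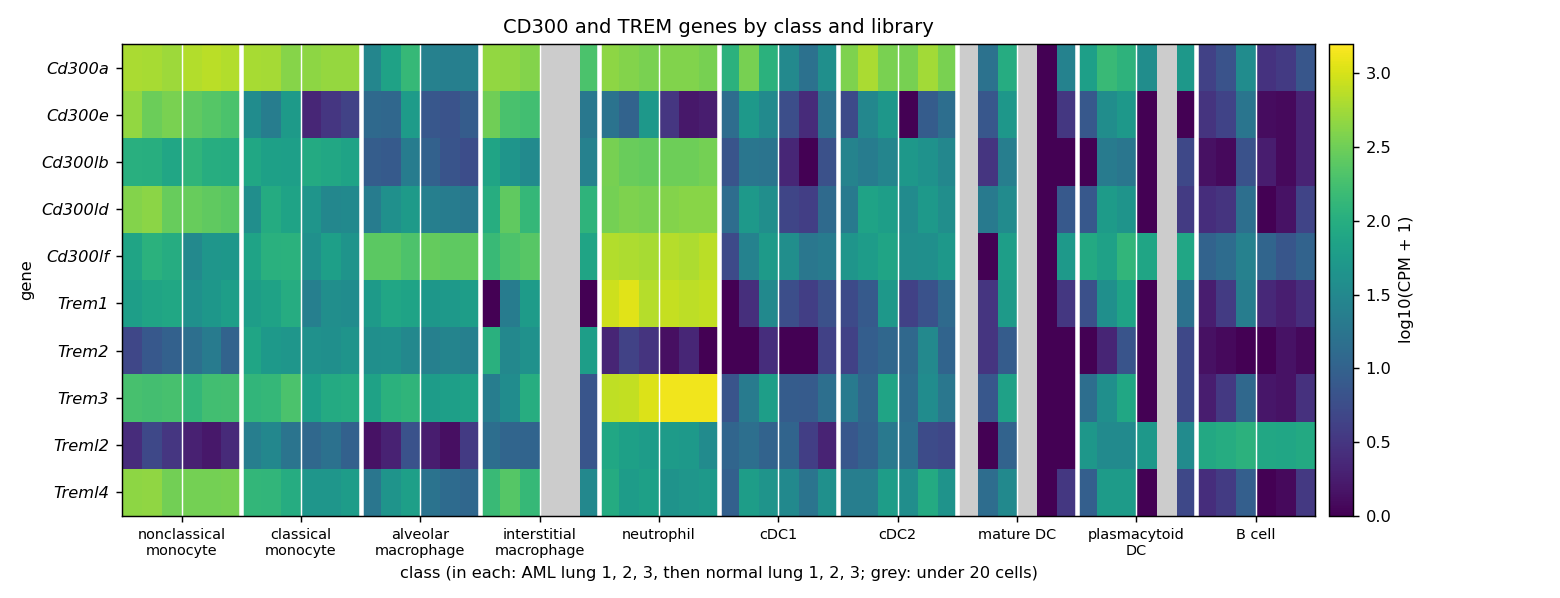
Level of each member as log10(CPM + 1) in 9 myeloid classes and B cells, with AML lung 1 to 3 and then normal lung 1 to 3 in each class (grey: fewer than 20 cells). Trem1 and Trem3 are brightest in neutrophils in every library, Cd300e and Treml4 in nonclassical monocytes, and Treml2 is bright in B cells and near 0 in nonclassical monocytes.

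The order of levels was taken over 9 myeloid classes, late neutrophil precursors not among them. In one fit over all class sums (edgeR quasi-likelihood test, Benjamini-Hochberg adjustment over 13063 genes), 8 of the 10 members were higher in their top class than in the next one. Both classes of each pair were picked by mean CPM of the same sums, so the direction of these steps was chosen from the tested data. Cd300e and Treml4 were highest in nonclassical monocytes, and Cd300lb, Cd300ld, Cd300lf, Trem1, Trem3 and Treml2 in neutrophils. Calls of this kind were common, with 18.7% of genes called between nonclassical monocytes and interstitial macrophages, 66.9% between neutrophils and nonclassical monocytes, 73.4% between neutrophils and alveolar macrophages and 67.4% between neutrophils and plasmacytoid dendritic cells. The fit's scaling factor for neutrophils averaged -0.69 on the log2 scale, against -0.03 to 0.25 in the other classes, so fitted neutrophil levels are higher relative to other classes than plain CPM.

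Groups of 3 libraries that do not overlap are common in these data and carry no call by themselves. In nonclassical monocytes 12.5% of genes with at least 30 UMIs had all AML libraries above all normal ones and 15.7% had them below. The shares above and below were 9.85% and 13% in neutrophils and 7.48% and 8.4% in alveolar macrophages, and 14% were above in classical monocytes.

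Cd300a, an inhibitory receptor of phosphatidylserine and phosphatidylethanolamine, was broadly expressed and had its highest CPM in nonclassical monocytes. It stood there at 622, 609 and 542 CPM in AML lungs and 676, 741 and 682 CPM in normal lungs. Every AML library lay below every normal one, and the log2 fold change of -0.20 ± 0.12 (SE) did not pass the test (adjusted p = 0.320). Classical monocytes had 603, 578 and 419 CPM in AML lungs and 458, 490.4 and 489 CPM in normal lungs, which overlapped. The step between these classes, 0.37 on the log2 scale, was within the spread (adjusted p = 0.318, 39.3% of genes called). Next in CPM came cDC2 with 439.5 ± 123 CPM, neutrophils with 388 ± 36.0 CPM (SD, n = 6 each) and interstitial macrophages with 384 ± 132 CPM (SD, n = 4). In the fit, cDC2 minus neutrophils was -0.65 on the log2 scale (adjusted p = 0.0403), so neutrophils stood above cDC2 there. The order by CPM thus did not hold in the fit.

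In alveolar macrophages and cDC1, where Cd300a was low, AML libraries stood above normal ones without a call. Alveolar macrophages had 28.4, 68.1 and 137 CPM in AML lungs and 24.5, 23.4 and 23.5 CPM in normal lungs, a log2 fold change of 1.73 ± 0.50 (SE, adjusted p = 0.458). cDC1 had 114, 351 and 109.8 CPM in AML lungs and 30.9, 14.6 and 38.2 CPM in normal lungs, with 2.70 ± 0.49 (log2, SE, adjusted p = 0.160). T cells, which should hold little of a myeloid receptor, had 13.3, 56.7 and 246 CPM in AML lungs and 3.58, 4.15 and 66.2 CPM in normal lungs, and B cells 3.18, 5.60 and 35.5 CPM in AML lungs and 1.90, 2.5 and 6.20 CPM in normal lungs. The groups overlapped in both kinds of lymphocytes. Cluster 10, named as T cells, held 16, 597 and 2013 cells in AML lungs and 9, 33 and 381 in normal lungs, doublets included. Its T cell marker score was 0.69, against 2.53 and 2.71 in the other T cell clusters. Nonclassical monocytes scored second, at 0.21, and 9.1% of its cells were predicted doublets. T cell markers summed in T cells to 1845 to 5130 CPM in AML lungs and 4247 to 4850 CPM in normal lungs. The part of free RNA in the alveolar macrophage and cDC1 values was not tested.

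Cd300lf, an inhibitory receptor that also serves as the entry receptor of murine norovirus, was highest in neutrophils. They had 669, 631 and 602 CPM in AML lungs and 690.5, 646 and 745 CPM in normal lungs, with overlapping groups. Alveolar macrophages had 248, 247 and 204 CPM in AML lungs and 275, 255 and 261 CPM in normal lungs, all AML libraries below all normal ones, with a log2 fold change of -0.17 ± 0.10 (SE) that was not called (adjusted p = 0.552). Neutrophils stood 2.21 above alveolar macrophages on the log2 scale (adjusted p = 1.36e-08), and these 1.28 above interstitial macrophages (adjusted p = 0.0483, 20.3% of genes called).

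Cd300lf rose in nonclassical monocytes of AML lungs. It had 73.1, 108 and 94.4 CPM in AML lungs and 31.5, 47.2 and 49.1 CPM in normal lungs, so every AML library lay above every normal one. The means were 91.8 ± 17.6 CPM in AML lungs and 42.6 ± 9.63 CPM in normal lungs (SD, n = 3 each), and the log2 fold change was 1.14 ± 0.21 (SE, adjusted p = 0.0204). It was 1 of 2 members called of 9 tested in this class, where 6.17% of 10786 genes were called and 3.67% were called higher. The call was lost without normal lung 1 (0.96, adjusted p = 0.0784), normal lung 2 (1.23, adjusted p = 0.0846) or normal lung 3 (1.27, adjusted p = 0.0644). Classical monocytes had 70.4, 108 and 108 CPM in AML lungs and 39.2, 63.7 and 44.7 CPM in normal lungs, again without overlap, and missed the threshold at 0.97 ± 0.22 (log2, SE, adjusted p = 0.0509). Most nonclassical monocytes lay in clusters 0 and 2 in AML lungs and in cluster 11 in normal lungs. Within cluster 11, Cd300lf had 63.8, 43.4 and 81.7 CPM in AML lungs and 29.9, 47.4 and 46.9 CPM in normal lungs, and the groups overlapped. T cells had 2.22, 15 and 97.1 CPM in AML lungs and 3.58, 3.11 and 9.82 CPM in normal lungs, and in AML lung 3 they lay slightly above its nonclassical monocytes.

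Cd300e, an activating receptor of monocytes that pairs with DAP12 in humans, was called in 3 of the classes with 3 libraries in each group, the other members in at most 1. In nonclassical monocytes it had 473, 298 and 363 CPM in AML lungs and 263, 227 and 196 CPM in normal lungs, and the groups did not overlap. The means were 378 ± 88.7 CPM in AML lungs and 229 ± 33.7 CPM in normal lungs (SD, n = 3 each), with a log2 fold change of 0.77 ± 0.18 (SE, adjusted p = 0.0427). The call was lost without AML lung 1 (0.58, adjusted p = 0.114) and without normal lung 1 (0.86, adjusted p = 0.119), 2 (0.78, adjusted p = 0.139) or 3 (0.68, adjusted p = 0.166), and with each cell named by its own marker score (0.76, adjusted p = 0.0536). Within cluster 11 the levels overlapped, at 391, 221 and 265 CPM in AML lungs and 261, 221 and 193 CPM in normal lungs. Averaged over the groups, Cd300e stood 2.58 above interstitial macrophages on the log2 scale (adjusted p = 0.00733). Without normal lung 3, the one normal library with enough interstitial macrophages, that step was 0.60 (adjusted p = 0.356).

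Markers of other cells and states moved in classical monocytes, the class in which Cd300e, Trem1 and Treml4 were called. The 7 immature myeloid markers summed to 101 to 198 CPM in AML lungs and 17.1 to 18.8 CPM in normal lungs, with 1 of them at 0 in each AML library and 2 in each normal one. Both of those tested, the granule proteases Elane and Prtn3, were called higher (median log2 fold change 5.13). The 6 cycling markers summed to 27.7 to 102 CPM in AML lungs and 12 to 16.9 CPM in normal lungs, and Mki67, Ccnb2 and Ube2c of 4 tested were called higher (median 2.38). Of the late neutrophil precursor markers, Lcn2 was called higher of 3 tested. Of the 7 classical monocyte markers, Fn1 was called lower and 0 higher, and the sum was 3678 to 4029 CPM in AML lungs and 4644 to 5224 CPM in normal lungs. The part of these cells and states in the differences of the 3 members was not tested.

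In classical monocytes Cd300e was higher in AML lungs, and in normal lungs it rested on few UMIs. It had 35.4, 21.9 and 54.4 CPM in AML lungs and 1.19, 2.20 and 3.27 CPM in normal lungs, from 96, 188 and 303 UMIs in AML lungs and 5, 9 and 12 UMIs in normal lungs. The lowest AML value was several times the highest normal one. The log2 fold change was 4.08 ± 0.45 (SE, adjusted p = 0.00685), and the ratio of the pooled levels was 16.0 (95% exact interval 10.8 to 24.7). It was 1 of 3 members called of 10 tested, all higher in AML lungs, where 2.9% of 10393 genes were called and 1.65% were called higher. The call was lost without normal lung 1 (3.76, adjusted p = 0.0773). Within cluster 12, which held most of these cells outside AML lung 3, Cd300e had 36.0, 19.6 and 44 CPM in AML lungs and 1.20, 2.24 and 2.10 CPM in normal lungs, again without overlap.

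Neutrophils showed the same direction at lower levels. Cd300e had 15.6, 9.44 and 49.2 CPM in AML lungs and 2.22, 0.611 and 0.801 CPM in normal lungs, from 28, 17 and 74 UMIs in AML lungs and 6, 1 and 1 UMIs in normal lungs. The groups did not overlap, and AML lung 3 was far above the rest. The log2 fold change was 4.10 ± 0.74 (SE, adjusted p = 0.0369), the pooled ratio 16.3 (95% exact interval 8.0 to 38.6), and edgeR called no other member of 9 tested (DESeq2 called 2 members), with 1.18% of 7034 genes called, 0.91% as higher. The call was lost without AML lung 1 (4.32, adjusted p = 0.0506) and without normal lung 1 (4.98, adjusted p = 0.170), 2 (3.82, adjusted p = 0.183) or 3 (3.93, adjusted p = 0.168), and with each cell named by its own marker score (2.14, adjusted p = 0.484). With finer clusters or equal cell numbers per library, Cd300e did not enter the test in neutrophils.

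In interstitial macrophages, the tissue macrophages marked by C1q genes, Cd300e had 318, 193 and 168 CPM in AML lungs, against 18.1 CPM (3 UMIs) in normal lung 3, the one normal library with at least 20 of these cells. With 3 AML libraries against 1, it was the one member under the threshold of 9 tested, at 3.55 ± 0.69 (log2, SE, adjusted p = 0.0497), where 1.04% of 7788 genes were called, 0.347% as higher, and the lone normal library was assumed to vary like the AML ones. Leaving out AML lung 1 ended the call (3.27, adjusted p = 0.0652), as did a stricter cell filter (3.42, adjusted p = 0.0746) and finer clusters (3.49, adjusted p = 0.120). With normal lung 2 let in by a minimum of 10 cells, a choice made after seeing the data, the log2 fold change was 3.47 (adjusted p = 0.0227). Over all cells of the 3 libraries of each group the pooled ratio was 13.3 (95% exact interval 6.38 to 33.2).

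Cd300e in lymphocytes, which should lack the gene and so gauge free RNA and mixed cells, stood higher in AML lungs in B and T cells. B cells had 1.99, 3.40 and 16.4 CPM in AML lungs and 0.272, 0.208 and 1.09 CPM in normal lungs, without overlap and with a pooled ratio of 6.21 (95% exact interval 2.76 to 15.8). T cells had 11.8, 26.6 and 102 CPM in AML lungs and 0, 1.73 and 11.0 CPM in normal lungs, also without overlap. The share of all genes without overlap was not counted in B or T cells, and no test between the groups was run there. NK cells had 0.513, 14.2 and 84.2 CPM in AML lungs and 0.623, 0 and 4.32 CPM in normal lungs, and these groups overlapped. The T and NK cells of AML lung 3 thus held many times the level of its B cells. Most T cells of AML lung 3 lay in cluster 10, whose T cell markers were weak.

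Levels were also set as a percentage of the level in nonclassical monocytes of the same library. In classical monocytes Cd300e was at 7.48%, 7.34% and 15% in AML lungs and 0.450%, 0.972% and 1.67% in normal lungs. In neutrophils it was 3.30%, 3.17% and 13.5% in AML lungs and 0.845%, 0.270% and 0.408% in normal lungs. In T cells it was 2.5%, 8.95% and 28.1% in AML lungs and 0%, 0.763% and 5.58% in normal lungs, in NK cells 0.108%, 4.77% and 23.2% in AML lungs and 0.236%, 0% and 2.20% in normal lungs and in B cells 0.420%, 1.14% and 4.51% in AML lungs and 0.103%, 0.0917% and 0.558% in normal lungs. Classical monocytes and neutrophils stood above the B cells in each AML lung, but below the T cells in AML lung 2 and 3. They stood below the NK cells in AML lung 3, as did neutrophils in AML lung 2. In AML lung 1 both stood above all 3 kinds of lymphocytes.

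The 8 nonclassical monocyte markers, none of them at 0 in classical monocytes, summed there to 25.5% to 31.4% of their nonclassical level in AML lungs and 24.3% to 25.5% in normal lungs, and 2 of the 8, Eno3 and Dusp16, were called higher. In neutrophils the sum was 21.6% to 29.3% in AML lungs and 15.1% to 16.2% in normal lungs, with Spn and Dusp16 called higher. In interstitial macrophages it was 40.3% to 45.7% in AML lungs and 15.6% in the single normal library, with Dusp16 called higher. In B cells it was 9.73% to 13.2% in AML lungs and 9.65% to 11.2% in normal lungs, in T cells 5.24% to 38.8% in AML lungs and 4.92% to 10.9% in normal lungs, and in NK cells 9.99% to 31.8% in AML lungs and 11.5% to 12.5% in normal lungs. The part of nonclassical monocyte RNA in the Cd300e differences of the other classes was not tested.

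**Figure D2:**
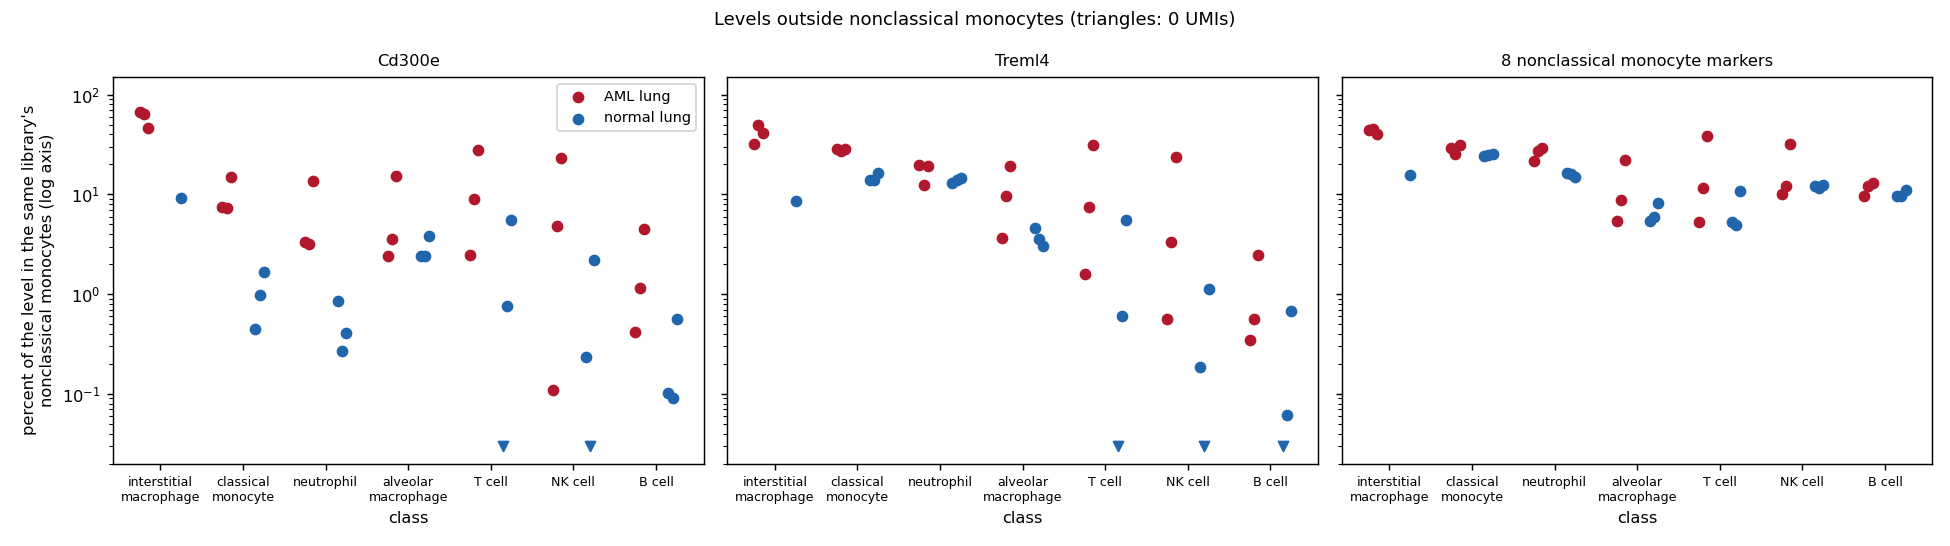
Levels of Cd300e, Treml4 and the sum of 8 nonclassical monocyte markers in 7 classes, as a percentage of the level in nonclassical monocytes of the same library (log axis), 1 point per library, AML lung left of normal lung. In classical monocytes Cd300e lies at 7.34% or more in AML lungs and at 1.67% or less in normal lungs, while T cells reach 28.1% in AML lung 3.

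Shares of cells with at least 1 Cd300e UMI were set at equal depth by thinning every cell to 1000 UMIs, which left out 3351 of 5797 nonclassical monocytes of AML lung 3 and at most 390 in any other library. In nonclassical monocytes the share was 37.3%, 25.1% and 28.2% in AML lungs and 22.9%, 18.8% and 19.2% in normal lungs, without overlap (unthinned, 91.3%, 65.5% and 30.2% in AML lungs and 69.4%, 57.8% and 41.9% in normal lungs). In classical monocytes it was 1.74%, 2.77% and 5.02% in AML lungs and 0%, 0% and 0.547% in normal lungs (unthinned, 10.5%, 8.49% and 6.30% in AML lungs and 1.75%, 1.24% and 1.30% in normal lungs). As background, B cells had a share of 0.266%, 0.317% and 2.69% in AML lungs and 0%, 0.103% and 0.149% in normal lungs. T cells had 0%, 3.15% and 9.16% in AML lungs and 0%, 0.199% and 0.847% in normal lungs, and NK cells 0%, 1.36% and 7.82% in AML lungs and 0%, 0% and 0% in normal lungs. The share in classical monocytes lay above that in T cells in AML lung 1 and below it in AML lung 2 and 3. It lay above that in B cells in each AML lung. The part of free RNA in these shares was not tested. B cells had a median depth of 6477, 3528.5 and 969.5 UMIs in AML lungs and 7149, 4357 and 3183.5 UMIs in normal lungs, and T cells of 7769, 2886 and 1017 UMIs in AML lungs and 7868, 4949 and 2603 UMIs in normal lungs. Classical monocytes had medians of 15591, 6498 and 1059 UMIs in AML lungs and 15266, 9488 and 4747 UMIs in normal lungs.

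Cd300lb, an activating receptor that signals through DAP12, was highest in neutrophils, which had 347, 289.9 and 274 CPM in AML lungs and 311, 309 and 335 CPM in normal lungs. The groups overlapped, with a log2 fold change of -0.02 ± 0.15 (SE, adjusted p = 0.960). Nonclassical monocytes came next with 102, 100.1 and 76.7 CPM in AML lungs and 123, 97.8 and 93.7 CPM in normal lungs, a step of 2.36 on the log2 scale (adjusted p = 7.81e-11) and again overlapping groups. Classical monocytes had 80.4, 65.8 and 63.8 CPM in AML lungs and 89.9, 81.1 and 70.1 CPM in normal lungs. Cd300lb was called between AML and normal lungs by edgeR in none of the classes where it was tested. In cDC1 and mature dendritic cells it did not pass the filter on low counts.

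Cd300ld, an activating receptor that associates with the Fc receptor gamma chain, was shared by neutrophils and nonclassical monocytes. In neutrophils it had 337, 385 and 358 CPM in AML lungs and 403, 421 and 422 CPM in normal lungs, and in nonclassical monocytes 406, 441 and 288 CPM in AML lungs and 283, 258 and 239.5 CPM in normal lungs. The AML libraries thus lay below the normal ones in the first class and above them in the second, and neither difference was called, at -0.16 ± 0.14 (log2, SE, adjusted p = 0.571) and 0.58 ± 0.16 (log2, SE, adjusted p = 0.0673). The difference between these AML effects, 0.83 ± 0.43 on the log2 scale, was not called either (adjusted p = 0.417, 1.03% of genes called). Neutrophils stood 0.99 above nonclassical monocytes in the fit (adjusted p = 0.000136), while their CPM ranges overlapped, and nonclassical monocytes 1.43 above interstitial macrophages (adjusted p = 0.00301).

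Trem1, a DAP12-linked amplifier of inflammation that binds the peptidoglycan recognition protein Pglyrp1, and Trem3, a DAP12-linked receptor of the mouse that is a pseudogene in humans, had the largest steps between neutrophils and the next class among the 10 members. Trem1 had 914, 1129 and 698 CPM in AML lungs and 823, 769.8 and 793 CPM in normal lungs there, with overlapping groups. Trem3 had 788, 798 and 1082 CPM in AML lungs and 1355, 1346 and 1346 CPM in normal lungs, all AML libraries below all normal ones, and its log2 fold change of -0.56 ± 0.16 (SE) was not called (adjusted p = 0.110). Neutrophils stood above the next class by 4.69 for Trem1 (alveolar macrophages, adjusted p = 2.34e-13) and 3.38 for Trem3 (nonclassical monocytes, adjusted p = 5.57e-13) on the log2 scale. Late neutrophil precursor markers moved in this class too, with Ngp, Camp and Lcn2 called higher in neutrophils of AML lungs. Their part in the Trem3 values was not tested.

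Trem1 rose in classical monocytes of AML lungs. It had 59.4, 68.7 and 94.6 CPM in AML lungs and 23.0, 36.7 and 34.9 CPM in normal lungs, without overlap. The means were 74.2 ± 18.3 CPM in AML lungs and 31.6 ± 7.45 CPM in normal lungs (SD, n = 3 each), and the log2 fold change was 1.25 ± 0.23 (SE, adjusted p = 0.0266). The call was lost without normal lung 1 (1.05, adjusted p = 0.143), 2 (1.38, adjusted p = 0.0940) or 3 (1.33, adjusted p = 0.0800) and with cells named by their own marker score (1.18, adjusted p = 0.0977). Trem3 had 125, 134 and 193 CPM in AML lungs and 62.4, 88.7 and 95.2 CPM in normal lungs in the same cells, also without overlap, and missed the threshold at 0.89 ± 0.22 (log2, SE, adjusted p = 0.0580).

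Neutrophil markers moved in the same direction in these cells, beside the immature myeloid and cycling markers. The 9 neutrophil markers summed in classical monocytes to 0.379% to 1.55% of their neutrophil level in AML lungs and to 0.337% to 0.455% in normal lungs, and S100a8 and S100a9 were called higher there. In B cells Trem1 had 0.795, 2.60 and 21.8 CPM in AML lungs and 1.36, 0.832 and 1.64 CPM in normal lungs, and Trem3 had 0.795, 2.40 and 10.9 CPM in AML lungs and 0.543, 0.416 and 1.82 CPM in normal lungs. In T cells Trem1 had 0.739, 9.24 and 82.4 CPM in AML lungs and 7.16, 4.84 and 7.99 CPM in normal lungs, and Trem3 had 3.69, 16.3 and 138 CPM in AML lungs and 5.11, 5.19 and 18.5 CPM in normal lungs. Both were highest in the T cells of AML lung 3, and below the classical monocytes of the same library in all 6. The part of neutrophil RNA in the classical monocyte values was not tested.

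Trem2, a DAP12-linked receptor of lipids and apolipoproteins on macrophages, did not pass 108 CPM in any myeloid class with at least 20 cells in a library. Interstitial macrophages had 108, 29.8 and 40.3 CPM in AML lungs and 60.5 CPM in normal lung 3. Classical monocytes had 75.6, 52.7 and 46.7 CPM in AML lungs and 40.6, 38.5 and 44.4 CPM in normal lungs, which did not overlap and was not called at 0.48 ± 0.18 (log2, SE, adjusted p = 0.153). The 2 classes did not differ beyond their spread (log2 0.08, adjusted p = 0.980, 15.9% of genes called), and classical monocytes stood 0.79 above alveolar macrophages (adjusted p = 0.00345, 60.2% of genes called).

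The AML libraries lay on opposite sides of the normal ones in 2 classes. In alveolar macrophages Trem2 had 38.7, 39.2 and 29.9 CPM in AML lungs and 23.6, 26.9 and 23.7 CPM in normal lungs, with a log2 fold change of 0.53 ± 0.14 (SE, adjusted p = 0.458). In nonclassical monocytes it had 3.81, 6.56 and 8.78 CPM in AML lungs and 13.9, 20.3 and 9.44 CPM in normal lungs, with -1.20 ± 0.36 (log2, SE, adjusted p = 0.0872). The difference between these effects was -1.63 ± 0.49 on the log2 scale (SE) and missed the threshold (adjusted p = 0.0617, 2.95% of genes called). The thinned share of alveolar macrophages with a Trem2 UMI was 4.96%, 4.78% and 2.54% in AML lungs and 2.64%, 2.5% and 2% in normal lungs, against 0%, 0.0926% and 1.51% in AML lungs and 0%, 0% and 0.212% in normal lungs for T cells.

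Treml2, a TREM-like receptor that is not known to pair with DAP12, had its highest CPM in B cells, at 84.3, 93.5 and 112 CPM in AML lungs and 82.0, 78.4 and 86.9 CPM in normal lungs, with overlapping groups, except in AML lung 1, where late neutrophil precursors had 107 CPM. Among myeloid classes, neutrophils had 78.7, 65.5 and 57.2 CPM in AML lungs and 55.3, 51.4 and 34.5 CPM in normal lungs, without overlap and without a call at 0.55 ± 0.23 (log2, SE, adjusted p = 0.231). They stood 1.51 above plasmacytoid dendritic cells on the log2 scale of the fit (adjusted p = 0.000433). Classical monocytes had 22.5, 29.5 and 16.2 CPM in AML lungs and 11.2, 14.5 and 9.0 CPM in normal lungs, also without overlap, at 0.98 ± 0.26 (log2, SE, adjusted p = 0.0697). T cells had 46.9, 52.8 and 21.1 CPM in AML lungs and 51.6, 46.0 and 39.3 CPM in normal lungs, and in nonclassical monocytes the gene did not pass the filter on low counts.

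Treml4, which binds dying cells and marks Ly6C-low monocytes in mouse, was highest in nonclassical monocytes. It had 459, 463 and 332 CPM in AML lungs and 335, 340.1 and 353 CPM in normal lungs there, and the groups overlapped, with AML lung 3 the lowest library, at a log2 fold change of 0.33 ± 0.14 (SE, adjusted p = 0.207). Nonclassical monocytes stood 2.67 above interstitial macrophages on the log2 scale (adjusted p = 0.000329). That step ranged from 1.35 to 2.78 when a library was left out. Normal lung 3, the one normal library with enough interstitial macrophages, held 5 Treml4 UMIs in them.

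Treml4 rose in classical monocytes of AML lungs, where immature myeloid and cycling markers and Eno3 and Dusp16 of the nonclassical monocyte markers were higher too. It had 131, 125 and 94.5 CPM in AML lungs and 46.5, 47.3 and 57.8 CPM in normal lungs, so no AML library overlapped a normal one. The means were 117 ± 19.6 CPM in AML lungs and 50.5 ± 6.31 CPM in normal lungs (SD, n = 3 each), and the log2 fold change was 1.20 ± 0.15 (SE, adjusted p = 0.00685). The call was lost without normal lung 1 (1.14, adjusted p = 0.0868) or normal lung 2 (1.17, adjusted p = 0.0593). Within cluster 12 the values were 129, 119 and 71.4 CPM in AML lungs and 45.0, 46.3 and 50.4 CPM in normal lungs. As a percentage of the level in nonclassical monocytes, Treml4 in classical monocytes was 28.5%, 27.0% and 28.4% in AML lungs and 13.9%, 13.9% and 16.4% in normal lungs. In T cells it was 1.61%, 7.47% and 31.1% in AML lungs and 0%, 0.610% and 5.56% in normal lungs, in NK cells 0.559%, 3.34% and 23.9% in AML lungs and 0.186%, 0% and 1.11% in normal lungs and in B cells 0.347%, 0.562% and 2.46% in AML lungs and 0%, 0.0611% and 0.672% in normal lungs. In AML lung 3 T cells thus stood above classical monocytes, and in AML lung 1 and 2 well below them. The thinned share of classical monocytes with a Treml4 UMI was 12.2%, 12.4% and 10.2% in AML lungs and 3.87%, 4.47% and 5.84% in normal lungs, against 0.829%, 5% and 9.16% in AML lungs and 0%, 0.199% and 1.48% in normal lungs for T cells and 0%, 0.396% and 0% in AML lungs and 0%, 0% and 0.0743% in normal lungs for B cells. It lay above the T cell share in all 6 libraries, least so in AML lung 3.

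**Figure D3:**
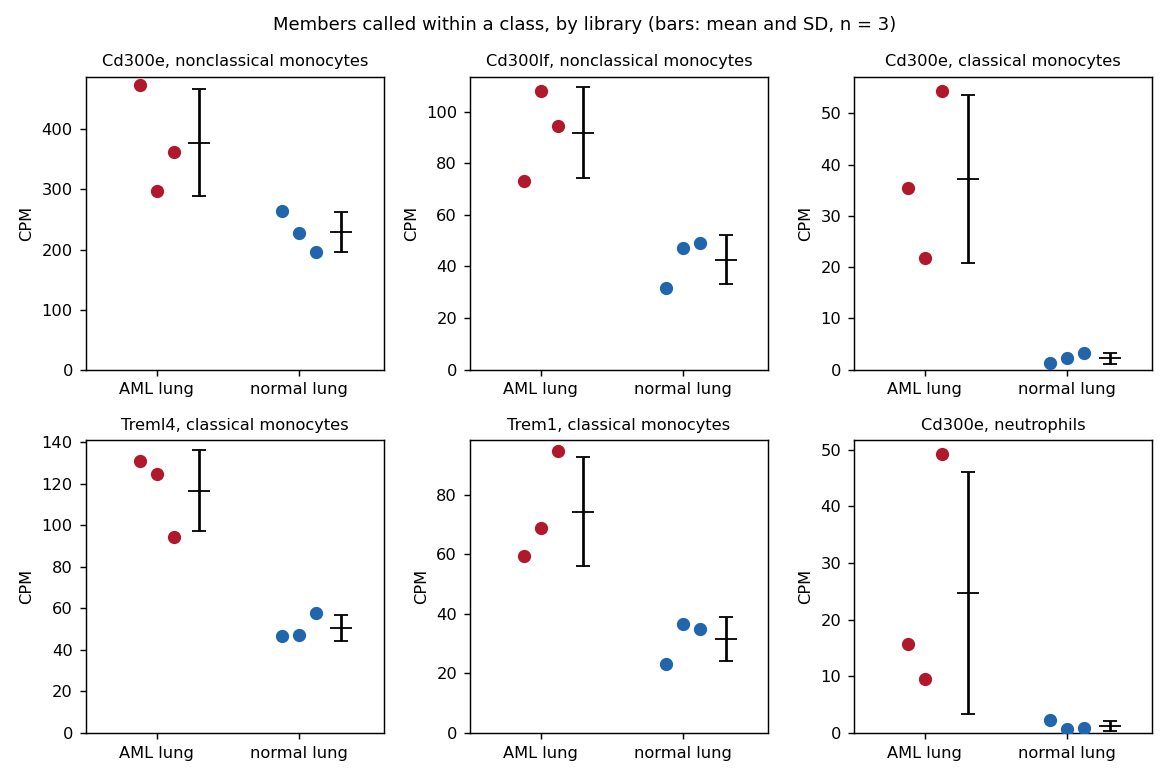
CPM in each library for the members called between AML and normal lungs in classes with 3 libraries a group, AML lung left and normal lung right, with the mean and SD beside the points (n = 3 each). In all 6 panels the lowest AML library lies above the highest normal one, and in neutrophils AML lung 3 stands apart for Cd300e.

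Over the 10 members, edgeR called 3 of 10 tested in classical monocytes (2.9% of all genes), 2 of 9 in nonclassical monocytes (6.17%) and 1 of 9 in neutrophils (1.18%). In interstitial macrophages, with 1 normal library, Cd300e had the log2 fold change of 3.55 given above. The members were chosen with earlier results of these data known, so the share over all genes beside each count is no test of the set. In alveolar macrophages no member of 9 tested was called by edgeR, where 0.0% of 11927 genes were called, although 6 passed at an unadjusted p under 0.05 and DESeq2 called 2. No member and no other gene was called by edgeR in cDC1, cDC2, mature dendritic cells or plasmacytoid dendritic cells (0.0%), with 2, 1, 0 and 5 members under an unadjusted p of 0.05 in that order, and DESeq2 called 1 in cDC1 and 0 in the other 3. Of the 10 members only 4, 8, 2 and 9 were tested in these classes, in the same order. Mature dendritic cells had 2 libraries in each group, and plasmacytoid dendritic cells 3 AML and 2 normal ones.

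**Figure D4:**
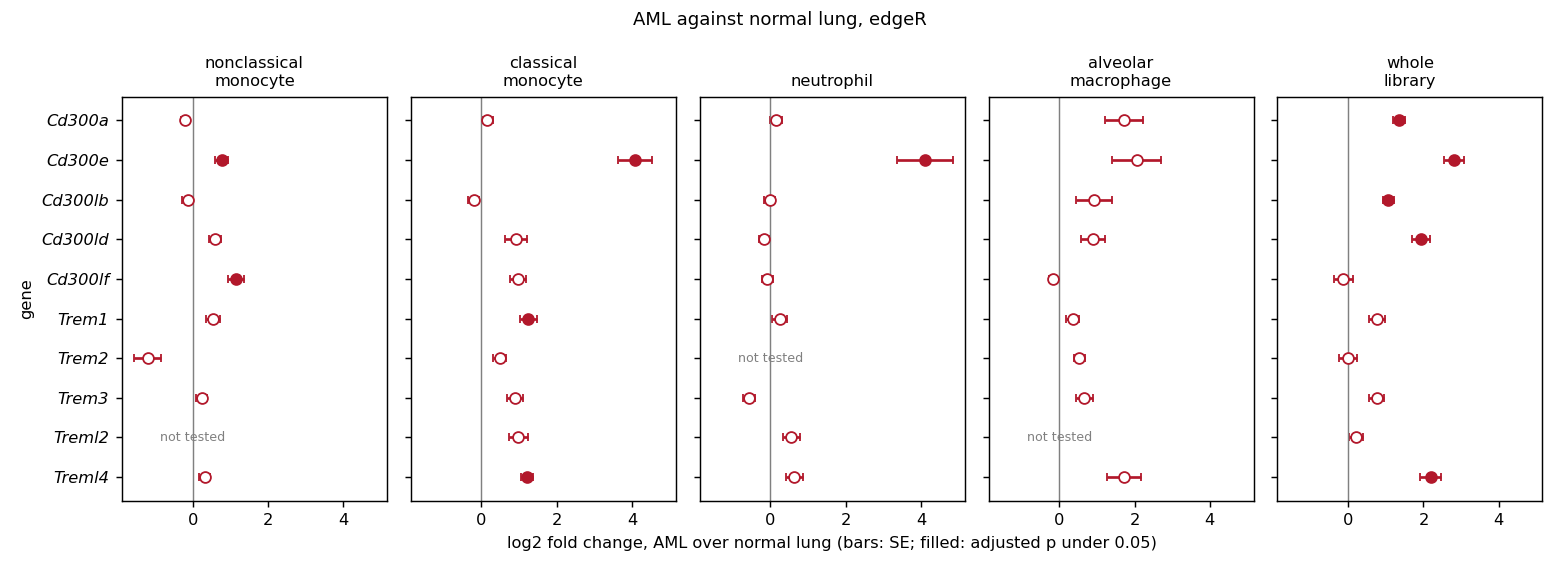
Log2 fold change of each member, AML over normal lung, with its SE, in 4 classes and whole libraries (filled: adjusted p under 0.05). Cd300e is filled in 3 of the 4 classes and over whole libraries, and no member is filled in alveolar macrophages.

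Whether an AML effect differed between classes was tested as nonclassical monocytes minus each of the other 4 main classes. No member was called in these 40 tests by edgeR, and 11 passed at an unadjusted p under 0.05, a test not run with DESeq2. From interstitial macrophages 0.107% of genes were called. For Cd300e the difference was -3.17 ± 0.78 (log2, SE) from classical monocytes (adjusted p = 0.174, 0.0459% of genes called) and -3.04 ± 1.06 from neutrophils (adjusted p = 0.163). The larger Cd300e fold changes in those classes are thus not shown to differ from the one in nonclassical monocytes. For Cd300a the difference from alveolar macrophages was -1.79 ± 0.57 (adjusted p = 0.0847).

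Over whole libraries, where more cells of a type and more RNA per cell cannot be told apart, 5 of the 10 members were higher in AML lungs and 0 lower, against 9.9% of 16856 genes called and 6.18% called higher. Cd300e had 255, 151 and 122 CPM in AML lungs and 25.8, 28.7 and 27.3 CPM in normal lungs, a log2 fold change of 2.82 ± 0.27 (SE, adjusted p = 0.00825). Treml4 had 256, 247 and 124 CPM in AML lungs and 44, 52.7 and 53.5 CPM in normal lungs, at 2.19 ± 0.27 (log2, SE, adjusted p = 0.0102). Neither gene's groups came close to overlapping, and 11.4% of 18500 genes of at least 30 UMIs stood apart in that direction. Cd300ld, at 1.92 ± 0.24 (log2, SE, adjusted p = 0.0102), Cd300a, at 1.34 ± 0.16 (log2, SE, adjusted p = 0.00934), and Cd300lb, at 1.07 ± 0.15 (log2, SE, adjusted p = 0.0132), were called as well, though by edgeR in no single class. All 5 calls were lost without normal lung 2, when no gene was called, and 3 members were called without normal lung 1.

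Cell numbers moved with these levels. Of the cells used, nonclassical monocytes were 51.3%, 41.8% and 16.7% in AML lungs and 10.7%, 13% and 10.3% in normal lungs, and alveolar macrophages 5.90%, 4.46% and 15% in AML lungs and 28.3%, 21.2% and 17.9% in normal lungs. Nonclassical monocytes held 94.3%, 86.1% and 40.4% of the Cd300e UMIs in AML lungs and 79.0%, 84.4% and 71% in normal lungs. Cd300lf was spread otherwise, with alveolar macrophages holding 22.3%, 10.4% and 21.1% of its UMIs in AML lungs and 67.6%, 62.2% and 55.2% in normal lungs. Its whole-library level was 106, 108 and 161 CPM in AML lungs and 191, 139.6 and 114 CPM in normal lungs, and the groups overlapped, at -0.12 ± 0.25 (log2, SE, adjusted p = 0.768). The part of cell numbers in the whole-library differences was not tested.

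**Figure D5:**
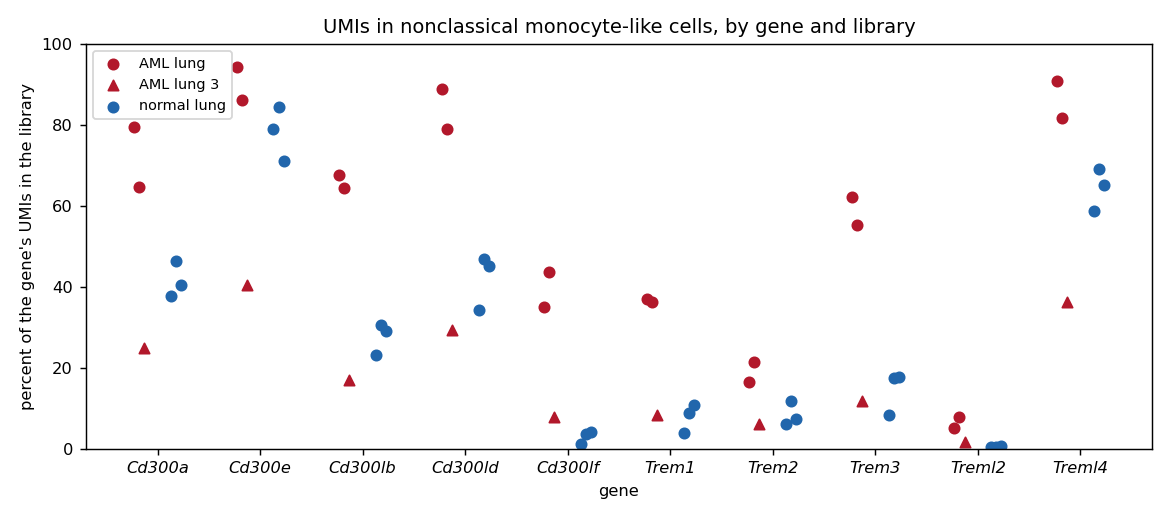
Percentage of each member's UMIs in a library that lay in nonclassical monocytes, 1 point per library, AML lung left of normal lung, with AML lung 3 as a triangle. AML lung 3 lies below AML lung 1 and 2 for every member, with 40.4% against 94.3% and 86.1% for Cd300e.

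Among 17 adaptors and proximal signalling genes, all tested in nonclassical monocytes, 1 rose and 1 fell there, where 6.17% of all genes were called, with a median log2 fold change of 0.11 against 0.01 over all genes tested. Fcer1g, the adaptor of Cd300ld, rose by 0.77 ± 0.15 (log2, SE, adjusted p = 0.0278), and Inpp5d, the lipid phosphatase SHIP1 of inhibitory signalling, was at -0.49 ± 0.12 (log2, SE, adjusted p = 0.0498). Tyrobp, the DAP12 adaptor, was at 0.27 ± 0.14 (log2, SE, adjusted p = 0.270) there and Hcst, the DAP10 adaptor, at 0.53 ± 0.18 (log2, SE, adjusted p = 0.115). In classical monocytes, where 2.9% of genes were called, 1 of 17 was called, Inpp5d, at -0.57 ± 0.13 (log2, SE, adjusted p = 0.0488). In neutrophils and alveolar macrophages 0 of 17 was called by edgeR. In interstitial macrophages the Src kinase Fgr was the one gene called of 16 tested, at 2.92 ± 0.44 (log2, SE, adjusted p = 0.0249), again with 1 normal library, whose spread is not known. Over whole libraries, where 9.9% of genes were called and 6.18% called higher, 7 of 17 rose and 0 fell, with a median of 0.46 against -0.01 over all genes, among them Fcer1g at 1.30 ± 0.14 (log2, SE, adjusted p = 0.00904) and Tyrobp at 0.77 ± 0.12 (log2, SE, adjusted p = 0.0164).

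Of 6 ligands and shedding proteases, 5 were tested in nonclassical monocytes and 1 fell, Apoe, a ligand of TREM2, at -1.96 ± 0.39 (log2, SE, adjusted p = 0.0259). Pglyrp1, the ligand of Trem1, was called over whole libraries, at 1.61 ± 0.14 (log2, SE, adjusted p = 0.00736). Of 12 genes of the lipid programme associated with TREM2, a list that also holds Apoe and Tyrobp, 9 were tested in nonclassical monocytes, where 3 rose and 1 fell (median 0.55, against 0.01 and 6.17% called over all genes). They were the lysosomal protease Ctsd at 1.17 ± 0.21 (log2, SE, adjusted p = 0.0193), the fatty acid binding protein Fabp5 at 1.82 ± 0.37 (log2, SE, adjusted p = 0.0285), galectin-3 (Lgals3) at 1.03 ± 0.24 (log2, SE, adjusted p = 0.0452), and Apoe. In classical monocytes, where 2.9% of genes were called, 2 of 9 rose (median 0.57 against 0.01), Cd9 at 1.34 ± 0.30 (log2, SE, adjusted p = 0.0445) and Itgax at 1.32 ± 0.24 (log2, SE, adjusted p = 0.0251), and 1 fell, lipoprotein lipase (Lpl), at -3.01 ± 0.50 (log2, SE, adjusted p = 0.0199). Over whole libraries 2 of 12 rose and 3 fell (median -0.37 against -0.01, with 9.9% of all genes called). Of 8 other CD300 and TREM genes, 3 were tested in nonclassical monocytes with 0 called by edgeR, and over whole libraries 2 of 4 tested were higher, Cd300c2 at 1.28 ± 0.20 (log2, SE, adjusted p = 0.0191) and Cd300ld3 at 3.1 ± 0.44 (log2, SE, adjusted p = 0.0145), which shares 84.1% of its 31-base words with other genes.

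The genes most like each member over 70 class sums, among 6597 genes averaging at least 20 CPM, are given by Pearson r of log2(CPM + 1) as a description, since sums of one library share its depth and free RNA. For Cd300e they were Smpdl3b (0.87), Fcgr4 (0.83) and Pparg (0.81), and for Treml4 Csf1r (0.92), Slc11a1 (0.91) and Smpdl3b (0.91). Trem1 and Trem3 each had the other among their 3 nearest genes, at r = 0.94, beside Clec4e (0.92) and Bmx (0.91) for Trem1 and Clec4e (0.94) and Msrb1 (0.94) for Trem3. For Cd300lb they were Igsf6 (0.95), Nfe2 (0.95) and Rnf149 (0.94), and for Cd300ld Pilra (0.93), Tgm2 (0.92) and Slc16a3 (0.92). For Cd300a they were Gm9733 (0.92), Lrrc25 (0.92) and Csf1r (0.91). For Cd300lf they were Sdcbp (0.89), Selenon (0.88) and Cd33 (0.86), and for Trem2 Msr1 (0.88), Gab1 (0.87) and Lamp1 (0.86). Genes most like Treml2 included Rflnb (0.76) and Gm11342 (0.75).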

How the data were processed

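UMI counts per gene and cell barcode were deposited by the authors as one matrix per library, made with a 3′ droplet kit per the labels' protocols and with Cell Ranger 7.0.0 on mm10 per the submitters' processing notes. The sources used here do not say how reads shared between genes were assigned. Cells were kept at 200 or more genes and 500 or more UMIs, with mitochondrial UMIs below 10% (71634 of 73095 barcodes), and doublets predicted by Scrublet in each library were removed. Cells were clustered with scanpy 1.11.5 and leidenalg 0.10.2 (2000 variable genes, 30 principal components, 15 neighbours, resolution 1) without any CD300 or TREM gene. Counts were summed per library and class and tested with edgeR 4.0.16 (TMM, low count filter, quasi-likelihood test, Benjamini-Hochberg adjustment over all genes tested, threshold 0.05). The test was also run on counts simulated from the means and dispersions of class sums. These held no group differences in free RNA or mixed cells, so they cannot vouch for the calls. Libraries with at least 20 cells of a class entered. Whole-library sums used every barcode. DESeq2 1.42.0 and other settings were tried as alternatives. A count of 0 allows up to 3 UMIs. The 10 members and the lists of partners, ligands, lipid genes and markers were chosen with earlier results of these data known. Named genes are all members, up to 5 called genes of a list and class by p, the adaptors Tyrobp, Hcst and Fcer1g, and the 3 genes most like a member. Some genes under this rule are not reported here.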

Additional observations from a re-analysis of the deposited data

How the results depend on the processing

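Members called within nonclassical monocytes (2) became 4 with DESeq2 and 6 with no low count filter, and ranged from 0 (without any one normal library) to 5 (without AML lung 3) when a library was left out. Genes called there (666) became 1146 and 1708, with 99 to 1826 when a library was left out. In classical monocytes the 3 members became 7 with DESeq2, 7 with no filter, and 5 each with finer clusters and with equal cells per library (0 to 6 when a library was left out), and the 301 genes became 645, 1320 with no filter and 93 with cells named by their own marker score (0 without normal lung 1, to 1212 without AML lung 3). In alveolar macrophages the 0 members became 2 and the 0 genes 105 with DESeq2, with 0 members and 0 to 1 genes when a library was left out. In interstitial macrophages the 1 member became 5 with no filter and 0 with a stricter cell filter or finer clusters (0 to 2 when an AML library was left out), and the 81 genes became 494, 15 with finer clusters, 122 with equal cells and 52 with at least 10 cells, the last chosen after seeing the data (59 to 321). Without normal lung 3 that class could not be tested. In neutrophils the 1 member became 2 with DESeq2 and 0 with own marker scores, finer clusters or equal cells (0 to 2), and the 83 genes became 297, 760 with no filter, 303 with doublets kept, 0 with own marker scores and 151 with finer clusters (1 to 343). With no filter 3 members were called in cDC1, 2 in cDC2, 3 in mature dendritic cells and 6 in plasmacytoid dendritic cells, and DESeq2 called 1 in cDC1. Leaving out a library called 0 members in these 4 classes. Over whole libraries the 5 members ranged from 0 to 5 and the 1669 genes from 0 to 3122 when a library was left out, and DESeq2 called 3419 genes. The differences in AML effect (0 calls) became 1 with RLE size factors and 6 with no filter (0 to 3). The count of 8 members above their next class ranged from 7 to 8 when a library was left out. The Trem2 difference between interstitial macrophages and classical monocytes, 0.08, ranged from -0.11 to 0.23 when a library was left out and changed sign to -0.13 with own marker scores, -0.11 without AML lung 1 and -0.03 without normal lung 3. The AML minus normal difference in the thinned share of classical monocytes with a UMI was 2.99 percentage points for Cd300e and 1.40 at 500 UMIs, and for Treml4 6.88, 2.37 at 500 UMIs and 5.42 with own marker scores. The causes of these changes, the smaller number of libraries among them, were not tested.

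Replicate numbers were not taken to pair the libraries, since the labels do not say that they do. Median UMIs per barcode fell with the number in both groups, at 9381, 3979.5 and 1067 in AML lungs and 9354, 6102 and 2740 in normal lungs. Correlations by number therefore cannot decide whether the libraries were paired. Libraries numbered 2 correlated at -0.13 to -0.03 over the 6 classes checked and whole libraries. Those numbered 1 and 3 correlated at 0.24 and 0.18 in nonclassical monocytes and at 0.65 each in alveolar macrophages. With the replicate block the members called were 4 in nonclassical and 6 in classical monocytes, 5 in plasmacytoid dendritic cells and 3 over whole libraries, and the genes called were 680 in classical monocytes, 44 in alveolar macrophages and 94 over whole libraries. No block could be fitted in interstitial macrophages. Over all results and alternatives, 367 stayed the same, 34 lost a call, 92 moved and 3 changed sign. Staying the same meant the same side of the threshold for a call, and a value close to the main one for a count or share. Counts that stayed at 0 are among the 367. The shallow AML lung 3 and the few normal interstitial macrophages limit the precision.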
